A study of Mus musculus with 4 samples.

Results

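The genes described here were 10 tumour suppressors and related guard genes that can lose expression through promoter methylation in liver cancer: Cdkn2a, Cdkn2b, Rassf1, Socs1, Apc, Cdh1, Gstp1, Mgmt, Sfrp1 and Dapk1. They were taken by name from the 26180 genes with a curated RefSeq transcript in the mm10 assembly, and the question was how methylated each was in normal liver. DNA methylation was measured at CpG cytosines by enhanced reduced representation bisulfite sequencing (ERRBS), in which genomic DNA is cut at CCGG by MspI, the enzyme the labels name, treated with bisulfite and sequenced, so that a methylated cytosine still reads as C. Whole livers came from 4 male mice aged 6 to 8 weeks on a normal diet, of which 2 had a mixed strain background (named Mixed-1, Mixed-2) and 2 a Black-6 background (named B6-1, B6-2). The labels name no tumour, transgene or treatment, and do not give the parent strains of the mixed background. Because the strains were kept at different institutions, effects of strain and of housing cannot be told apart. A cytosine entered when each of the 4 mice had 10 or more reads at the same chromosome, position and strand, and 1125 of the 1276684 such cytosines fell in the 10 genes. Of these, 823 lay within 1000 bp of a transcription start site (TSS), 38 lay more than 1000 and up to 2000 bp from the nearest TSS and are called the shore, and 264 lay in the gene body, beyond 2000 bp. A methylation level is the percent of reads that kept a C, a region's level in a mouse is the mean over its cytosines, and errors are SDs over the 4 mice.

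In mammals, promoters that lie in CpG islands are usually free of methylation, while the CpGs of transcribed gene bodies are usually methylated. Dense methylation of a promoter island is tied to stable silencing of the gene, and in hepatocellular carcinoma the islands of CDKN2A, RASSF1, SOCS1, GSTP1 and APC are among those that gain it. The level in healthy liver is the baseline against which such a gain is judged. ERRBS does not separate 5-methylcytosine from 5-hydroxymethylcytosine, and a whole liver holds several cell types, so a level is an average over both marks and over hepatocytes, endothelium and blood cells.

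The median coverage of the member cytosines was 41 and 44 reads in Mixed-1 and Mixed-2 and 64 and 60 reads in B6-1 and B6-2, so depth also differed with strain. Reads made by PCR are not independent molecules, and intervals or floors given below cover counting error only. Of the hepatocyte markers, 2 of 8 had 5 or more measured TSS cytosines, and their levels were 0.651% for Apoa2 and 28.7% for Hnf4a. Of the blood markers, 1 of 5 did (Spi1, 77.7%), and of the endothelial markers 0 of 3 did. The tissue label was therefore checked on few genes only.

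Sequences from RefSeq (GRCm38.p6) were matched for 7 of the 10 genes, and those of Apc, Cdh1 and Sfrp1 were not matched. The 250 bases before a start of 3 genes are printed here in the sense of the gene. Rassf1 has 2 curated starts, and its stretch precedes the downstream one at 107554583, which had more measured cytosines. The stretch before its upstream start at 107551555, whose TSS region averaged 4.15%, is not printed. Which of the starts gains methylation in tumours was not examined, so the printed stretch stands for the downstream start only. The Mgmt stretch precedes the upstream start of that gene at 136894586. Capitals mark the CpGs with a cytosine measured in all 4 mice. They lie at chr19:4037913-4038162 on the minus strand, chr9:107554333-107554582 on the plus strand and chr7:136894336-136894585 on the plus strand. The letters CCGG, which read the same on both strands, occurred in the 250 bases before 8 of 10 starts of these genes in the RefSeq promoter table, against 47.1% of all 32851 starts.
Gstp1 promoter: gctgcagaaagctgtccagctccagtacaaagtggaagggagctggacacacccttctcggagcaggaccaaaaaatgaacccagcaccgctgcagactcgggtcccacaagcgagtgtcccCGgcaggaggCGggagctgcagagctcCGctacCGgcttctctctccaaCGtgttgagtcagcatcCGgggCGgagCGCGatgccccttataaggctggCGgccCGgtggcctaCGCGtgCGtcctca
Rassf1 promoter: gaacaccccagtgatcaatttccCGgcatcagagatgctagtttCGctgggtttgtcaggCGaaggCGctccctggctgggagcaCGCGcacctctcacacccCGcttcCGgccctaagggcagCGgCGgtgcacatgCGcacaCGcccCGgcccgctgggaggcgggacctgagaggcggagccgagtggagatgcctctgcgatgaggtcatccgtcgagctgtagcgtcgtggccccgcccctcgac
Mgmt promoter: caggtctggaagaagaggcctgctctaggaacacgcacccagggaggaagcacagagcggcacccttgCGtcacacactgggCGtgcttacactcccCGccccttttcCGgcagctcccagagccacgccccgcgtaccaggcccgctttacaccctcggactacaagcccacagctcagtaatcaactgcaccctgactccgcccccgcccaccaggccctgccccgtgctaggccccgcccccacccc
The 22 measured cytosines of the Gstp1 stretch averaged 0.242% over the mice, the 20 of the Rassf1 stretch 0.183% and the 4 of the Mgmt stretch 0.315%. In Mgmt only 4 of the 15 CpGs were read, all in the upstream part of the stretch.

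The TSS regions of all 10 genes were almost free of methylation in every mouse. Their 823 cytosines averaged 1%, 0.87%, 0.857% and 0.994% in Mixed-1, Mixed-2, B6-1, B6-2, an order kept for values that name no mouse (mean 0.93% ± 0.0769, SD, n = 4). The strains overlapped, since each had a mouse above 0.99% and a mouse below 0.88%. All 10 genes had a TSS mean under 5%, which 83.7% of the 14912 genes with at least 5 measured TSS cytosines also had, so this share was close to that of genes in general. The median over the 10 genes was 0.695%, against 0.315% over those 14912 genes. Levels ran from 0.113% in Cdkn2b to 3.64% in Cdh1. Those of Cdkn2a and Mgmt came from the upstream start of each gene alone. With all sites of each mouse, shared or not, Mgmt was at 5.81%, and its B6-1 mean was 15.1% on 7 cytosines. Above 80%, the bound for hypermethylation, stood 1 of the 823 cytosines, and 1.25% of the TSS cytosines of all curated genes did so. Below 20%, the bound for hypomethylation, were 818, and 4 lay between the bounds.

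**Figure D1:**
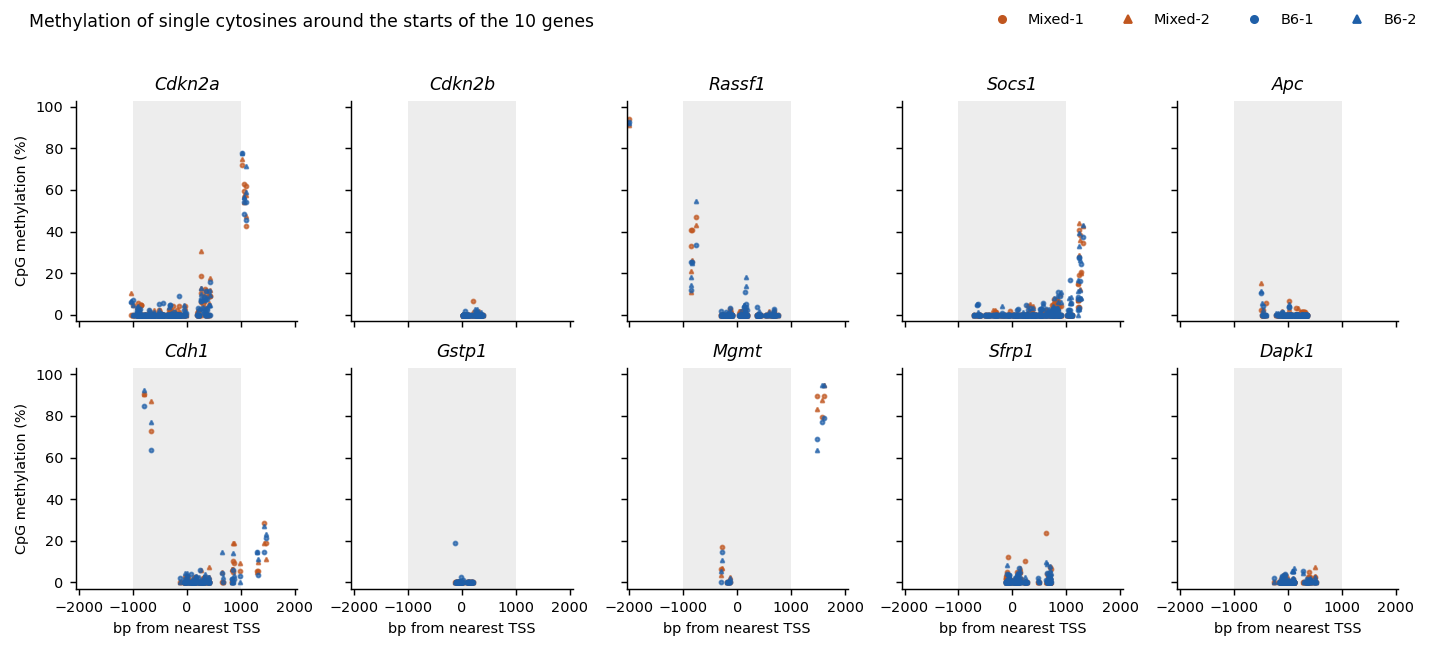
Methylation of each measured cytosine (y axis, percent) against its distance in bp from the nearest TSS of the gene (x axis), for the 10 genes; orange and blue mark Mixed and B6 mice, circles and triangles the replicates 1 and 2, and grey the TSS region. Most points in the grey region lie near 0, except a group at -787 and -666 bp in Cdh1 and a group from -853 to -770 bp in Rassf1. Single mice also reach higher values there, such as 30.8% at +271 bp in Cdkn2a and 23.8% at +627 bp in Sfrp1. To the right of the grey region, values rise in Cdkn2a, Socs1, Cdh1 and Mgmt, and to its left Rassf1 has a high cytosine at -2000 bp.

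Position within the TSS region separated the values that were not near 0. The 768 TSS cytosines inside a CpG island averaged 0.497% ± 0.0823, and none of them was above 80%. The 54 in the island's flanks averaged 7.07% ± 0.863. Here islands were found from the repeat-masked sequence, and a flank is the 2000 bp on either side. All 5 TSS cytosines at or above 20% lay in flanks, outside the transcribed part of the gene: 3 belonged to Rassf1 and 2 to Cdh1.

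Cdkn2a encodes the cell cycle inhibitor p16INK4a and, from a separate start and reading frame, p19ARF, which protects p53. The 164 TSS cytosines all belonged to the upstream start at 89294619 on chromosome 4. They averaged 0.925%, 0.858%, 0.809% and 0.685%. The 2 Mixed means were above the 2 B6 means, by 0.145 points between strain means (exact permutation test over mice, two-sided, p = 0.33, the smallest value that 2 mice against 2 allow). The highest cytosine, in the coding part of exon 1 at +271 bp, was at 18.8%, 30.8%, 6.67% and 12.9% (mean 17.3% ± 10.3), on 13 to 31 reads. At the downstream start at 89282192, none of the 114 CpG cytosines within 1000 bp was measured in all 4 mice, although the window holds 5 CCGG sites. That downstream start makes p16INK4a. Around it, 7 cytosines had 10 or more reads in the B6 mice only, averaging 5.57% in B6-1 and 5.16% in B6-2. The level of Cdkn2a given here is thus that of the upstream promoter alone, not that of the p16INK4a start.

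Just beyond 1000 bp on the intronic side, the level of Cdkn2a was no longer low. A patch of 5 intronic cytosines at +1018 to +1095 bp is shown because it holds the highest values near this gene (chr4:89293516-89293609, minus strand, measured CpGs in capitals).
Cdkn2a intron patch: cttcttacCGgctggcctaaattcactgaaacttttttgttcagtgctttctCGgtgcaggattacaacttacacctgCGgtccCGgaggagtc
Its means were 59.8%, 58.4%, 56.1% and 64.2% (59.6% ± 3.43). The mice overlapped between strains. The highest cytosine was at +1018 bp with 72.2%, 75%, 77.6% and 77.6%. On the upstream side, the 2 shore cytosines at -1030 and -1006 bp averaged 5.82% and 4.05% over the mice. The start of the non-coding gene Gm12610 lies within 2000 bp of the intronic patch.

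Cdkn2b encodes p15INK4b, a second inhibitor of the cyclin D kinases next to Cdkn2a. Its 47 TSS cytosines had means of 0.17%, 0.0387%, 0.0965% and 0.145%. Averaged over the 4 mice this was the lowest of the 10 genes, although Gstp1 was at 0% in 3 of the mice. Unlike most bodies, its measured body was low as well. The 6 cytosines of the coding exon 2, shown here for that reason (chr4:89307116-89307178, minus strand), lie in an island of their own.
Cdkn2b exon 2: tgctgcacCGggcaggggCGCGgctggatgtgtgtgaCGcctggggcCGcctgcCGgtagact
They averaged 5.43%, 8.38%, 8.23% and 7.45% (7.37% ± 1.36), with a highest value of 11.7%. The body of Cdkn2a was low too: 15 cytosines at +7061 to +7462 bp from the downstream start averaged 4.86%, 4.52%, 3.21% and 3.92% (4.13% ± 0.725), in exonic and intronic sequence flanking another small island.

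Rassf1 encodes a scaffold of the Hippo and RAS pathways that is among the most often methylated genes in human tumours. Its start at 107554583 on chromosome 9 was read at 56 cytosines with means of 0.0822%, 0.136%, 0.226% and 0.164%. Its start at 107551555 was read at 34 cytosines, and the means were 5.02%, 3.26%, 3.67% and 4.65% (4.15% ± 0.822). The higher level at the upstream start came from 4 cytosines at -853 to -770 bp, shown here (chr9:107550694-107550793, plus strand).
Rassf1 upstream patch: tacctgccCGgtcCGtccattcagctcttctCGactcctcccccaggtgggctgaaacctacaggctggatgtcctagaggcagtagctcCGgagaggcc
These 4 averaged 40.5%, 25.4%, 24.2% and 28% (29.5% ± 7.5). Mixed-1 was the highest and the other mice lay close together. The cytosine at -770 bp was at 46.9%, 43.3%, 33.7% and 54.5% (mean 44.6% ± 8.65, 64 to 132 reads), and B6-1 was the lowest mouse there. The 30 cytosines of exon 1, at +36 to +185 bp, averaged 0.767% ± 0.59. A lone cytosine at -2000 bp was at 92.6% ± 1.12, so the level fell from above 80% to near 0 within 2 kb of sequence. The start of Gm34106 lies within 2000 bp of both the patch and that cytosine.

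Socs1 encodes a suppressor of JAK-STAT signalling. Its 149 TSS cytosines averaged 0.516%, 0.536%, 0.591% and 0.643% (0.571% ± 0.0573), with the B6 means above the Mixed means by less than 0.1 points between strains. Most of the short gene lies in an island of 1995 bp. Its highest TSS cytosine, in the coding exon 2 at +843 bp, was at 6.98% ± 2.73. Toward the end of the coding sequence the level rose: the 23 shore cytosines, all exonic, averaged 8.3%, 9.46%, 8.33% and 9.72% (8.95% ± 0.746). The last of them, at +1306 bp and 3 bp past the coding sequence in the 3′ UTR, was at 34.5%, 42.6%, 37.5% and 43.2% (39.5% ± 4.2). Neighbouring cytosines there differed widely, from 3.46% at +1230 bp to 34% at +1232 bp, in all 4 mice alike.

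Apc and Sfrp1 restrain Wnt signalling, Apc as a scaffold of the beta-catenin destruction complex and Sfrp1 as a secreted antagonist. The 98 TSS cytosines of Apc averaged 0.319%, 0.233%, 0.24% and 0.292% (0.271% ± 0.0413). Of these, 97 belonged to the start at 34220984 on chromosome 18, and the start at 34247694 was read at 1 cytosine. The highest, at -498 bp, was at 2.27%, 15.1%, 10.7% and 11.4%, so Mixed-1 was low where the other 3 mice were not. The 82 TSS cytosines of Sfrp1 averaged 1.38%, 0.583%, 0.749% and 1.24% (0.99% ± 0.385), and Mixed-1 and B6-2 were above the other 2 mice. Its highest, in the coding part of exon 1 at +627 bp, was at 23.8%, 0%, 1.21% and 9.68% on 21, 14, 83 and 62 reads, so the highest and the 0% value were those with the fewest reads.

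Cdh1 encodes E-cadherin, which joins epithelial cells. Its TSS mean was the highest of the 10 genes, at 3.43%, 4.31%, 3.02% and 3.81% (3.64% ± 0.554), and the strains overlapped. A pair of upstream cytosines carried it. The cytosine at -787 bp was at 90.7%, 90.3%, 85% and 92.5% (89.6% ± 3.23) on 60 to 93 reads, the only TSS cytosine of the 10 genes above 80%. The cytosine at -666 bp was at 72.7%, 87%, 63.6% and 77.3% on 22 or 23 reads. From -134 to +985 bp, the 61 other TSS cytosines averaged 1.06% ± 0.38.

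Gstp1 encodes a glutathione transferase that detoxifies electrophiles. No methylated call was found among 1054 read calls of Mixed-1, 936 of Mixed-2 and 1481 of B6-2 at its 34 TSS cytosines. With every call counted as independent, a bound of 3 divided by the number of calls allows levels of up to 0.285%, 0.321% and 0.203%. A read can cover several of these neighbouring cytosines, so the real bounds are higher. B6-1 had 6 methylated of 1905 calls. Of these, 3 of 16 reads were at -128 bp (18.8%, exact 95% binomial interval 4.05% to 45.6%), where the other mice had 0 of 21, 18 and 12 reads. At that depth, 0 reads allows up to 14.3%, 16.7% and 25% by the bound of 3 divided by the reads. The exact 95% intervals of these mice end at 16.1%, 18.5% and 26.5%.

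Mgmt encodes the enzyme that removes alkyl groups from guanine, and its methylation is read in the clinic in brain tumours. It was read at 6 of the 90 CpG cytosines around its upstream start, from -298 to -141 bp, with means of 3.92%, 2.13%, 2.45% and 3.08% (2.9% ± 0.791). The highest, at -285 bp, was at 17%, 6.67%, 14.7% and 10.6% (12.2% ± 4.57). The downstream start at 136913098 had 0 of 38 CpG cytosines measured. On the transcribed side the level was high by +1484 bp: the 3 shore cytosines averaged 86.2%, 88.6%, 75% and 84.4% (83.6% ± 5.98), with B6-1 the lowest. Dapk1 encodes a calmodulin-dependent kinase that promotes cell death. Its 90 TSS cytosines averaged 0.295%, 0.224%, 0.342% and 0.516% (0.344% ± 0.124), both B6 means above both Mixed means (exact permutation test, two-sided, p = 0.33), with a highest value of 3.13% in the intron.

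**Figure D2:**
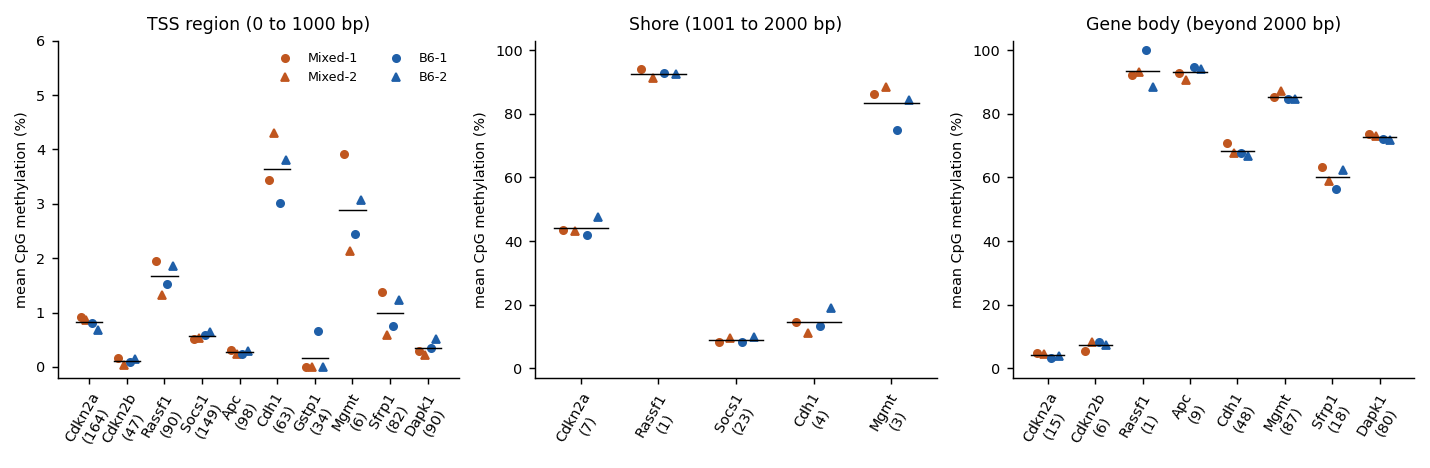
Mean methylation (y axis, percent) of each gene with measured cytosines in the TSS region, shore and gene body; each symbol is a mouse, the line is the mean over 4 mice, and the number of cytosines stands in parentheses. The TSS panel ends at 6% and the other panels span 0 to 100%; TSS means stay under 5%, shores run from 8.95% in Socs1 to 92.6% in Rassf1, and the bodies of Cdkn2a and Cdkn2b are the low ones.

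Shores were measured in 5 genes. The 38 cytosines averaged 23.8%, 24.2%, 22.5% and 25.7% (24.1% ± 1.32). Between 20% and 80% lay 11 of the 38, and 11.2% of the shore cytosines of all curated genes did so. The gene means were 92.6% in Rassf1 on 1 cytosine, 83.6% in Mgmt on 3, 44% in Cdkn2a on 7, 14.5% in Cdh1 on 4 and 8.95% in Socs1 on 23, so the mean over cytosines was weighted to Socs1.

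Gene bodies were methylated in 6 of the 8 genes read there. The 264 cytosines averaged 71.6%, 71.1%, 69.9% and 70% (70.6% ± 0.83), and the body exceeded the TSS region by 70.6, 70.2, 69.1 and 69 points in the 4 mice (mean 69.7 ± 0.812). The direction was the same in 4 of 4 mice (exact sign-flip permutation test over mice, two-sided, p = 0.13, the smallest value 4 mice allow). Above 80% were 164 of the 264 cytosines, and 54.4% of the body cytosines of all curated genes were. Below 20% were 43 of the 264, against 21.6% of all body cytosines. Of the 43, 21 belonged to Cdkn2a and Cdkn2b. Over the 7 genes with at least 5 body cytosines the median was 68.3%, below the 81% over the 10218 genes of the annotation so measured. Exonic cytosines of the bodies averaged 78.3% ± 1.17 (72 cytosines) and intronic ones 67.8% ± 0.748 (192 cytosines).

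The fully methylated end of the range held cytosines of 4 long genes. The highest body cytosine of Apc, in a coding exon at 34312403 on chromosome 18, was at 100%, 100%, 100% and 97.6% (99.4% ± 1.2). That of Mgmt, intronic at 137007031 on chromosome 7, was at 99.3% ± 0.824, that of Dapk1, intronic at 60710229 on chromosome 13, at 99.2% ± 1.56, and that of Cdh1, in a coding exon at 106649139 on chromosome 8, at 98.9% ± 1.38. The 9 body cytosines of Apc were all above 80% (93.1% ± 1.77). The highest of Sfrp1, in the 3′ UTR at 23449275, was at 94.5% ± 6.89 on 14 to 26 reads, and the only body cytosine of Rassf1, intronic in a repeat at 107560745, was at 93.5% ± 4.83.

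Within Cdh1, the level climbed with distance from the start over the long intronic stretch. Groups of neighbouring cytosines averaged 14.5% ± 3.34 at +1307 to +1475 bp, 9.86% ± 3.44 at +3444 to +3554 bp and 13.3% ± 8.17 at +7810 to +7911 bp. The next groups were at 40.4% ± 2.37 from +8342 bp and at 76.9% ± 4.61 from +13089 bp. All these were intronic and outside CpG islands. Farther on, groups stood at 56.8% ± 5.58 from +32416 bp, 91% ± 3.18 from +34510 bp and 91.7% ± 2.53 from +45507 bp. The cytosine at +7845 bp was still at 5.71%, 4.54%, 2.94% and 8.51%, far past the island, which ended within 1000 bp of the start.

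Sfrp1 and Dapk1 had low patches in their introns. In Sfrp1, 7 intronic cytosines at +7966 to +8143 bp averaged 28.2%, 23.3%, 22.2% and 34.3% (27% ± 5.51), while the groups on either side were at 80.6% ± 3.65 and 74.7% ± 8.11. In Dapk1, 7 intronic cytosines at +84802 to +84985 bp averaged 19.5%, 13.9%, 21.5% and 13.8% (17.2% ± 3.92), and the group that began at +86766 bp was at 90.9% ± 2.08. The Dapk1 patch, its lowest body group, is shown because nothing in the annotation marks it as a promoter or an island (chr13:60687005-60687204, plus strand).
Dapk1 intron patch: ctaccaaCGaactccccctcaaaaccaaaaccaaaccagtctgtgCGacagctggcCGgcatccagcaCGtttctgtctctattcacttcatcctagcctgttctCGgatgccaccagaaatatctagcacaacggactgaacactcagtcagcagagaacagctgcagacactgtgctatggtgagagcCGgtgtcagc
The nearest measured cytosines before it were low as well, with 26.7% ± 3.88 at a single cytosine at +59612 bp and 28.5% ± 6.97 in a group of 3 from +81820 bp. Another group of 3, from +99374 bp, was at 19.2% ± 7.17 and lay between groups at 89.8% and 94.9%. The Mgmt body, by contrast, was high along its length (85.4% ± 1.16 on 87 cytosines), with lower groups at 51.5% ± 1.75 from +88792 bp, 46.2% ± 7.39 from +118452 bp and 54.2% ± 4.87 from +206781 bp.

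**Figure D3:**
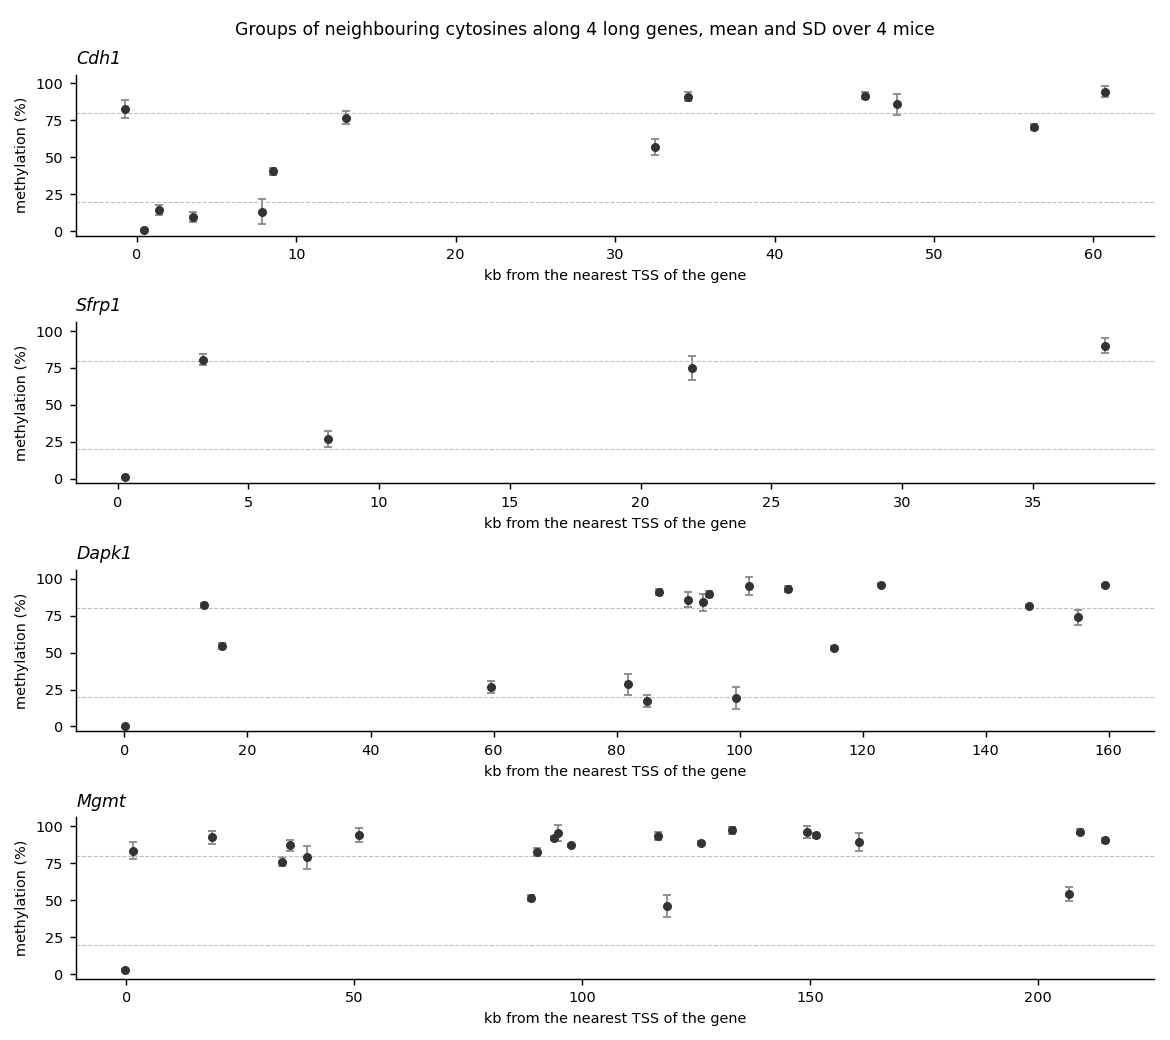
Mean methylation (y axis, percent) of groups of neighbouring cytosines, joined where gaps are at most 300 bp, against distance in kb from the nearest TSS (x axis) in Cdh1, Sfrp1, Dapk1 and Mgmt; bars are SDs over 4 mice and dashed lines mark 20% and 80%. Cdh1 climbs from 9.86% to above 80% along the gene, Sfrp1 dips to 27%, Dapk1 dips to 17.2% and 19.2%, and Mgmt stays near 85.4% on average with groups near 50%.

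A different kind of low value was found at the ends of short MspI fragments. In a coding exon of Dapk1, 12 cytosines on both strands lie on a fragment of 47 bp between neighbouring CCGG sites (chr13:60749213-60749277, plus strand), shown with all of its CpGs.
Dapk1 exon: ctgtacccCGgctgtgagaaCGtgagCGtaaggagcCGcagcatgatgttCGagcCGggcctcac
At the CpG that begins at 60749221, the plus strand was at 94.6% and the minus strand at 1.85%. At the CpG that begins at 60749268, the plus strand was at 3.65% and the minus strand at 96.7%. Fragments were defined here by CCGG sites alone, and cuts by TaqαI, which the study's methods also name for the assay, were not considered. Both CpGs sit in CCGG, and in each the low strand is the one whose read of this fragment ends there. In the end repair of such libraries the cut end is filled in with cytosines that were never methylated. Whether this made the low values seen here was not tested. Over the whole series, CCGG sites were taken in which a strand was at the far end of a fragment of 30 to 50 bp. For the other strand, the fragment that would end at the site was longer than 60 bp. That other strand was above 80% at 6131 CpGs, and at 3604 of them (58.8%) the far strand was below 20%. At fragments of 51 to 60 bp, 1 of 1506 (0.0664%) was. Of the 43 body cytosines below 20%, 4 lay at such far ends: the 2 in Dapk1, 1 in a Cdh1 exon at 106659627 (5.35%, in a group that averaged 70.4%) and 1 in Cdkn2b exon 2 at 89307124 (0% in each mouse). Without the far-end cytosines the body mean was 71.7% and the TSS mean 0.951%. The intronic low patches of Sfrp1 and Dapk1 held none of them.

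**Figure D4:**
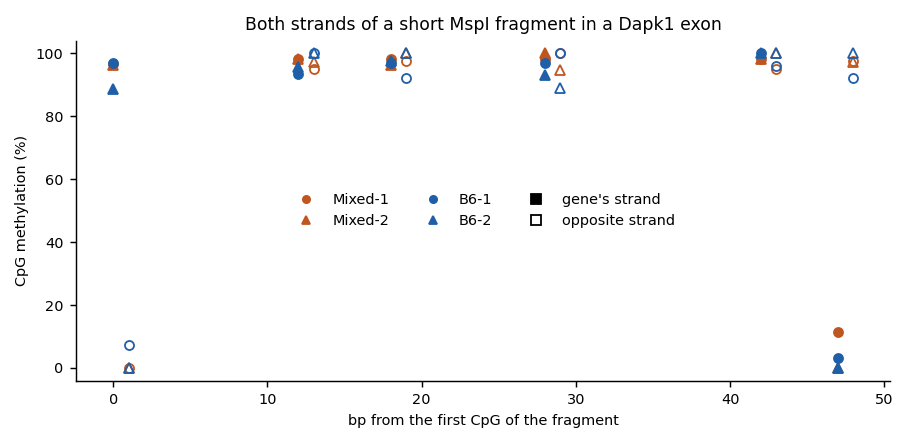
Methylation (y axis, percent) of the 12 cytosines of the Dapk1 exonic fragment against bp from its first CpG (x axis), in 4 mice; filled symbols are the gene's strand and open symbols the opposite strand. The opposite strand is at 1.85% on average at the left end and the gene's strand at 3.65% at the right end, while the partner strands are at 94.6% and 96.7%.

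No strain difference passed a test at these genes. At the TSS regions the strain means differed by 0.00951 points (exact permutation test over mice, two-sided, p = 0.667), and in the bodies the Mixed mice were higher by 1.39 points, with no overlap (exact permutation test, p = 0.33, the smallest possible). With all sites of each mouse, shared or not, the body difference was -0.47 points, the opposite direction. In a logistic model of reads per cytosine with moderated overdispersion, 0 of the 1125 cytosines met both bounds, a p under 0.01 after Benjamini-Hochberg adjustment and strain means 25 points apart, and 0.00548% of all cytosines (70 of 1276684) were. The lowest adjusted p among members was 1. An unadjusted p under 0.05 was reached by 3 of the 823 TSS, 3 of the 38 shore and 15 of the 264 body cytosines, against 2.03% of all cytosines. That share mixes all regions. It was not computed for all shores or all bodies alone, so these counts show no excess or lack in the 10 genes. Members called by a Fisher test of the reads summed within strains numbered 0, and it called 0.126% of all cytosines (1612). Limma on log2 ratios called 0 members and 0 of all cytosines, so its count says nothing particular to these genes. The widest gap with a low unadjusted p was in the Cdh1 intron at 106611261, with 48% and 30.8% in the Mixed mice and 5.13% and 10% in the B6 mice, on 25 to 40 reads (adjusted p = 1 in the logistic model with limma's moderation). That cytosine belongs to the Cdh1 group from +7810 bp, whose SD was 8.17. The Mgmt shore cytosine at +1484 bp was at 89.7%, 83.3%, 68.8% and 63.8% (adjusted p = 1 in the same model).

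Other genes of the same pathways were read for comparison, each with at least 5 measured TSS cytosines. Of the RB and p53 cell cycle genes, 12 of 12 were measured, with a median of 0.183% and a range from Cdkn2c (0.1%), a sister of Cdkn2b, to Cdkn1c (24.4%), an imprinted gene. Of the Wnt antagonists and destruction complex genes, 12 of 12 had a median of 0.922%, from Axin1 (0.146%) to Apc2 (18.1%). The SOCS and JAK-STAT genes (11 of 11) had a median of 0.188%, from Socs3 (0.0741%) to Ptpn6 (76.9%), a phosphatase of blood cells. The RASSF and Hippo genes (11 of 12) had a median of 0.168%, from Stk4 (0.0907%) to Rassf2 (2.39%).

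The glutathione transferases (7 of 10) had a median of 0.869%, from Gsto1 (0.149%) to Gstp2 (82.9%), the near copy of Gstp1. Gstp2 was at 84.2%, 85.9%, 84.4% and 77.2% on 7 cytosines, where Gstp1 was at 0.166% ± 0.332. Reads of these near-identical copies may be split between them by the alignment. The DNA repair genes (8 of 8) had a median of 0.168%, from Apex1 (0.0756%) to Xrcc1 (5.04%). The cadherins and catenins (6 of 7) had a median of 0.619%, from Ctnna1 (0.142%) to Ctnnd1 (96.1%), and the death kinases and apoptosis genes (7 of 7) a median of 0.548%, from Bax (0.138%) to Fas (4.02%). Genes with a TSS mean of 5% or more were 1 of 12, 2 of 12, 1 of 11, 0 of 11, 1 of 7, 1 of 8, 1 of 6 and 0 of 7 in the order given, and 0 of 10 among the tumour suppressors described here.

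**Figure D5:**
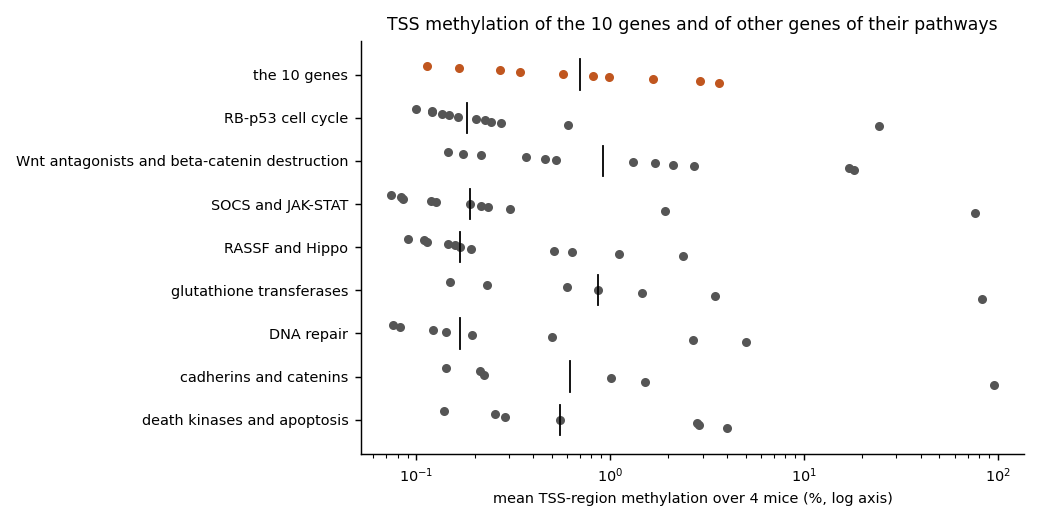
Mean TSS methylation over 4 mice (x axis, percent, log scale) of the 10 genes and of the other genes of each pathway with at least 5 measured cytosines; each point is a gene and the vertical line is the median. The 10 genes lie between 0.113% and 3.64%, and the points above 50% are Ptpn6, Gstp2 and Ctnnd1.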

How the data were processed

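Liver DNA of 4 mice was measured by ERRBS. The authors deposited, for each mouse, a table of cytosines covered by at least 10 reads with the read count (coverage) and the percent of reads with C and with T, per the file headers. The study's methods name BSMAP for alignment to mm10 and the submitters' processing notes list Bismark and SAMtools, so the aligner of these tables is uncertain. Methylated reads were recovered as coverage times percent, and 100.0% of values were whole reads. All CpG cytosines shared by the 4 mice were assigned to RefSeq transcripts (NM and NR) of GRCm38.p6.

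Strain was tested per cytosine with a logistic model whose dispersion was moderated with limma 3.58.1 in R 4.3.3 (prior 1.79, set from cytosines of 5 to 95%, a choice made after seeing the data, and kept at 1 or above), with Benjamini-Hochberg adjustment over 1276684 cytosines. Tested on simulated data of 100000 cytosines, 141 of 200 changed by 50 points were recovered with 0 false calls. The real data were adjusted over 1276684 cytosines, and the bound on the strain difference was 25 points. The simulated recovery therefore does not give the power of the model for the members. Single values were compared by exact permutation tests over mice. Figures used matplotlib 3.10.9. All 10 members, the highest cytosine per member and region and the genes at both ends of each comparison list were named. The members and lists were chosen with earlier results of these data known. Each sample is a liver of a separate mouse, and the p-values of permutation tests rest on the spread between these mice. Those of the logistic model rest largely on a dispersion shared across cytosines (prior of 16 degrees of freedom). Fisher's test sums the reads of a strain and takes no account of the spread between mice. Alternatives were coverage minimum, strand merging, pooling, region width, transcripts, weighting, fragment ends and leaving out each mouse.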

Additional observations from a re-analysis of the deposited data

Results flagged for a closer look

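The Gstp1 TSS mean stood apart in B6-1, at 0.665%, against 0% in Mixed-1, Mixed-2 and B6-2. This mean over 34 cytosines was carried mostly by the cytosine at -128 bp, with 3 of 16 reads methylated. Over all calls of B6-1 in the region, 6 of 1905 were methylated (0.315%). The Gstp1 mean was the 1 mean of 26 tested by Dixon's rule in which a mouse stood apart. By chance the rule sets apart about 1 in 20 groups of normally spread values. With the other mice at 0%, any methylated call in B6-1 would have set it apart, so that rate does not apply to this mean.

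Signal was also found at cytosines not measured in all 4 mice and so outside the comparisons above. Around the downstream start of Cdkn2a, which makes p16INK4a, 7 cytosines had 10 or more reads in the B6 mice only. They averaged 5.57% in B6-1 and 5.16% in B6-2 (mean 5.37%), at a median of 41 and 36 reads per cytosine. The highest of them, at 89282026, was at 14.6% in B6-1 (exact 95% binomial interval 5.57% to 29.2%) and 25% in B6-2 (12.1% to 42.2%). A cytosine of Mgmt at +520 bp was at 90.9% in B6-1 alone, with 10 of 11 reads methylated (58.7% to 99.8%).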

How the results depend on the processing

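The body mean stayed above the TSS mean under every alternative run. The TSS mean of 0.93% became 1.07% with the strands merged, 0.491% within 500 bp and 1.15% with genes weighted equally. The shore mean of 24.1% became 36.7% at 20 reads, 21.9% with strands merged, 26.5% with reads pooled, 6.23% beyond 500 bp, 29.3% with predicted transcripts, 48.7% with genes weighted equally and 13.7% around islands. The body mean of 70.6% became 69.7% at 20 reads, 72.3% with all sites of each mouse, 60.6% with genes weighted equally and 71.7% without far-end cytosines, which was chosen after seeing the data. The count of 1 hypermethylated TSS cytosine became 2 with all sites of each mouse and 0 within 500 bp. The causes were not tested.

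The TSS strain difference of 0.00951 points changed sign at 20 reads (-0.026), with all sites of each mouse (-0.0456) and within 500 bp (-0.0598), and ran from -0.0587 to 0.0777 when a mouse was left out, below 0 without Mixed replicate 1 and without B6 replicate 1. The body strain difference of 1.39 points was -0.47 with all sites of each mouse and ran from 1.14 to 1.64 without each mouse. The replicate numbers come from the sample names only, and the deviations of same-numbered mice correlated at -0.000798 over 412054 cytosines of 5 to 95% (2 pairs). With the replicate block the differences were 0.00951 and 1.39 points and 0 members were called; 0 members were called under the other 10 settings too, of which the Pearson dispersion was chosen after seeing the data. Over all cytosines, calls numbered 70, 0 with the replicate block, 1612 by Fisher's test, 0 by limma, 62 at 20 reads, 133 at adjusted p under 0.05, 124 at 10 points, 265 with the Pearson dispersion and 0 to 93 without a mouse, where the lone mouse of a strain is assumed to vary like the others. No body cytosine lay within 2000 bp of another gene's TSS. Of 182 values of single genes and regions under the other settings, 153 moved by at most 1 SD, and single-gene TSS means ran from 0.0437% to 5.81%. Coverage of 10 to 182 reads limits what a single cytosine shows.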
